A study of Homo sapiens with 42 samples.

Results

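The 37 genes described here are targets and partners of ATF4, the transcription factor at the centre of the integrated stress response. They were taken as a fixed list of stress, amino acid synthesis and amino acid transport genes, with tRNA synthetases left out, and the rule names genes without a threshold on measured values, though the list was drawn up with earlier results of these data known. All 37 were present among the 60606 genes of the TPM table (transcripts per 1000000, a level scaled to transcript length and to the library total), and all 37 were among the 14426 genes with a mean of at least 1 TPM that were tested. By role the list holds 10 regulators, 8 stress effectors and secreted or surface proteins, 6 enzymes of serine and one-carbon metabolism, 6 other amino acid enzymes and 7 amino acid transporters.

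RPL3 is a core protein of the ribosome's large subunit. The study lowered it in AC16 cells, an immortalised human ventricular line that the labels call cardiomyocyte-like, and added back its striated muscle paralog RPL3L in wild-type or variant form. PolyA RNA of whole cells was sequenced in 30 libraries, 3 in each of 10 groups, all with doxycycline at 1 ug/ml. The shScramble group carried a doxycycline-inducible scrambled hairpin and the shRPL3 group an inducible hairpin against RPL3. The RPL3L-WT group carried the RPL3 hairpin with wild-type RPL3L. The other 7 groups carried the RPL3 hairpin with RPL3L bearing G27D, P291L, D308N, D308V, R343W, T189M or R161W. The P291L titles name that variant as doxycycline-inducible too, which the titles of the other RPL3L lines do not. Hairpins entered by lentivirus with hygromycin selection, and the RPL3L cells were sorted as BV421-positive, so each RPL3L group is a selected population. Nothing in the labels says that replicates were separate cultures, so p-values measure only the spread between these samples, which may be technical.

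In the integrated stress response, kinases that sense amino acid shortage, unfolded protein, haem shortage or double-stranded RNA phosphorylate the initiation factor eIF2. General translation falls, while the ATF4 message, held back by upstream reading frames in unstressed cells, is then translated. ATF4 protein pairs with C/EBP family partners on composite elements and drives genes for amino acid uptake and synthesis, for further transcription factors such as DDIT3 (CHOP) and ATF3, and for PPP1R15A (GADD34), which guides a phosphatase back to eIF2. In heart and skeletal muscle the response is known from mitochondrial disease, where amino acid enzymes and secreted factors such as GDF15 rise together.

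Matches to the TGATGNAA core of the composite element in promoters of the list are shown here, since the element is the known binding sequence of ATF4 and its partners. RefSeq promoters (GRCh38.p14, 250 bases before to 50 bases after each start) were present for 30 of the 37 genes. The core was searched on both strands, and it was found at 9 of the 49 promoters of these 30 genes (18.4%), against 1270 of 35116 promoters of all genes (3.62%). Counted by gene, 9 of 30 had it (30.0%), against 4.46% of 27305 symbols. Each line gives 30 bases in the direction of the gene, with the core in capitals (as its complement in SLC1A4, SLC3A2 and CHAC1). A match is a description of the letters and does not show that ATF4 binds there.
ATF3, chr1:212565205-212565234, plus strand: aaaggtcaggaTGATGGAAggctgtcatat
SLC1A4, chr2:64989381-64989410, plus strand: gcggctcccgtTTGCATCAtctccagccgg
ASNS, chr7:97872458-97872487, minus strand: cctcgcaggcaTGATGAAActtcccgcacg
SLC3A2, chr11:62881719-62881748, plus strand: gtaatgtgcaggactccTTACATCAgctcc
SLC7A1, chr13:29595663-29595692, minus strand: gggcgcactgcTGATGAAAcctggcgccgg
JDP2, chr14:75427995-75428024, plus strand: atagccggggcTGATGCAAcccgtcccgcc
CHAC1, chr15:40953251-40953280, plus strand: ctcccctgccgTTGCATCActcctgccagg
CEBPG, chr19:33374060-33374089, plus strand: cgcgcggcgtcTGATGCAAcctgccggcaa
SLC1A5, chr19:46784893-46784922, minus strand: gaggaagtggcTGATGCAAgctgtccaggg

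The core lay 7 bases before the start in SLC1A4, 16 in JDP2, 42 in CEBPG, 68 in ASNS, 97 in SLC1A5, 191 in ATF3 and 209 in CHAC1. In SLC7A1 and SLC3A2 it lay within the transcript, at positions 8 and 38. The promoters of ALDH1L2, EIF4EBP1, GPT2, NUPR1, PSPH, PYCR1 and SHMT2 were not searched.

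The labels were checked before the results. RPL3 was at 1534 to 1611 TPM in shScramble, at 500 to 570 TPM in shRPL3 and at 439 to 737 TPM in the RPL3L lines other than R161W (1059 to 1686) and T189M (780 to 1246). RPL3L was at 2145 to 5198 TPM in the RPL3L lines and at most 0.0571 TPM in the hairpin-only libraries, except shRPL3 replicate 3 with 121 TPM. Of 14 cardiomyocyte markers, 11 were under 1 TPM in every library, TNNT2, MYH6, MYH7 and NKX2-5 among them, and GATA4 was at 0.823 to 4.94 TPM. All 11 fibroblast markers were detected in every library, VIM at 2158 to 3623 TPM and COL1A1 at 583 to 1695 TPM. Libraries fell into 2 kinds, a split without a label. In the levels of 330 pseudogenes, replicates 1 and 2 of RPL3L-WT and of T189M, G27D replicate 3 and R161W replicate 1 stood apart from the other 24. Within the 4 groups that hold both kinds, 27 of the 37 genes were lower in the second kind in every group and 4 were higher, with PPP1R15A 0.50 higher and TRIB3 0.69 lower on the log2 scale. Genes at large were lower too, with a median shift of -0.155 over all genes tested against -0.267 for the list. The share of all genes lower in every group was not counted. The model therefore held the kind as a term. A "kind-adjusted" fold change below is a log2 difference of TPM + 1 between groups after removing 1 kind shift per gene. That shift was estimated from the 4 groups with both kinds and was assumed to be the same in each. The added 1 understates the change of genes with low TPM.

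ATF4 itself, on chromosome 22 at 39519695 to 39522685 (GRCh38), had the highest mean level of the list over the 30 libraries, 833 TPM. Its level was highest in D308V, at 1212, 1191 and 1191 TPM, followed by D308N at 1167, 1142 and 1147 TPM and R343W at 1107, 1114 and 1132 TPM. The shRPL3 libraries held 1038, 1020.0 and 1066 TPM, and G27D held 932, 921 and 859 TPM. A lower set followed, with P291L at 712, 713 and 685 TPM, RPL3L-WT at 605, 563 and 628 TPM, and shScramble at 606, 589 and 582 TPM. R161W, at 499, 536 and 556 TPM, and T189M, at 479, 479 and 518 TPM, were lowest. In that order each group's libraries lay apart from those of the next, except RPL3L-WT against shScramble and R161W against T189M, whose ranges overlapped. Both overlaps were between libraries of different kinds, and within each kind R161W was above T189M. Between the lowest and the highest group mean, not adjusted for kind, ATF4 spanned 2.44 times. ATF3 spanned the widest range of the list at 3.93 times, GDF15 3.79 times, TRIB3 3.56 times and DDIT3 3.41 times, while ALDH18A1 spanned 1.22 times and MTHFD2 1.35 times. The lowest group of ATF4, GDF15, TRIB3 and DDIT3 was T189M. Most of its libraries are of the second kind, in which these genes were lower.

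**Figure D1:**
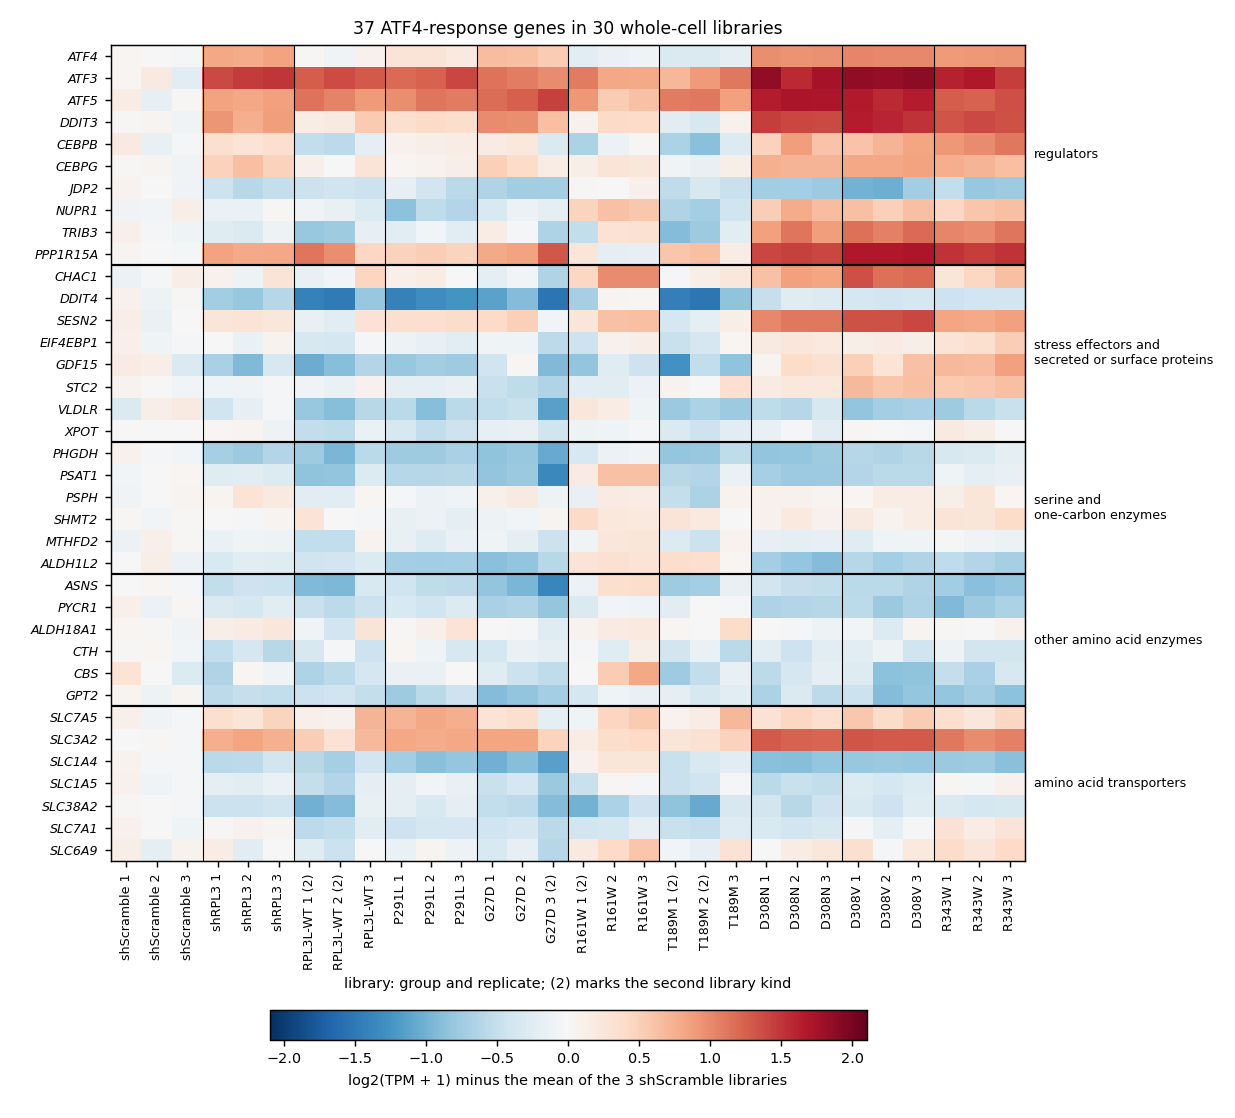
Level of each of the 37 genes (rows, grouped by role) in each of the 30 whole-cell libraries (columns), as log2(TPM + 1) minus the mean of the 3 shScramble libraries; red is higher, blue lower, and (2) marks the 6 libraries of the second kind. ATF4, DDIT3 and PPP1R15A are red in shRPL3 and in D308N, D308V and R343W, while PHGDH and GPT2 are blue in every library with the RPL3 hairpin.

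The first comparison asked what the RPL3 hairpin did to the list. Most regulators rose, PPP1R15A among them, while 7 of the 12 amino acid enzymes fell and 0 rose. Compared with shScramble, shRPL3 had 10 of the 37 genes higher and 14 lower, against 24.4% and 24.5% of all genes tested. The median fold change of the list was -0.06 (log2), against -0.01 over all genes. Bulk RNA cannot tell fewer cells with a message from less of it per cell.

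Of the 10 regulators 7 rose and 2 fell, with a median of 0.67. ATF4 rose from 592 ± 12.4 TPM (SD, n = 3) to 1041 ± 23.4 TPM, a fold change of 0.81 (log2, SE 0.03, adjusted p = 2.12e-17). ATF3, a stress-induced repressor and activator, was at 8.36, 9.37 and 6.66 TPM in shScramble and at 22.6, 24.2 and 24.6 TPM in shRPL3. The groups lay far apart, and its change of 1.45 (SE 0.11, adjusted p = 7.53e-11) was the largest of the list. DDIT3, the factor CHOP linked to stress-induced cell death (chromosome 12, 57516588 to 57521737), was at 52.3, 53.5 and 49.1 TPM against 99.1, 88.3 and 96.1 TPM, a change of 0.86 (SE 0.04, adjusted p = 1.31e-13). PPP1R15A (chromosome 19, 48872392 to 48876057) went from 101, 96.4 and 94.3 TPM to 176, 169 and 172 TPM, a change of 0.82 (SE 0.04, adjusted p = 4.36e-14). ATF5, a relative of ATF4 tied to the mitochondrial stress response, was at 25.5, 20.2 and 23.3 TPM and then at 41.8, 41.1 and 42.4 TPM, a change of 0.84 (SE 0.06, adjusted p = 5.31e-11). In none of these 5 genes did a shScramble library reach a shRPL3 library. CEBPG, the dimer partner of ATF4, rose by 0.53 and CEBPB by 0.32. JDP2, a repressor of the AP-1 family, fell by 0.51 and TRIB3, a pseudokinase that restrains AKT and ATF4, fell by 0.22.

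Among the 8 stress effectors, 1 rose and 2 fell. DDIT4 (REDD1), an inhibitor of mTORC1, was at 71.7, 62.6 and 68.3 TPM in shScramble and at 40.5, 38.6 and 44.2 TPM in shRPL3, a change of -0.70 (SE 0.07, adjusted p = 6.59e-09). The secreted cytokine GDF15 was low, at 6.13, 5.91 and 4.15 TPM against 2.97, 2.31 and 4.04 TPM, a change of -0.65 (SE 0.18, adjusted p = 4.76e-03). SESN2, a leucine sensor that also restrains mTORC1, was at 8.32, 6.74 and 7.48 TPM and rose to 9.07, 9.37 and 9.06 TPM (0.26, SE 0.07, adjusted p = 1.85e-03). These 3 genes had no overlap between the groups, though the GDF15 libraries came close. CHAC1, EIF4EBP1, STC2, VLDLR and XPOT did not pass, with fold changes from -0.20 to 0.08.

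Serine and one-carbon enzymes were lower in 3 cases of 6 and higher in 0. PHGDH, the first enzyme of serine synthesis, was at 236, 218 and 213 TPM in shScramble and at 136, 130.2 and 144 TPM in shRPL3, a change of -0.69 (SE 0.05, adjusted p = 3.26e-11). PSAT1, the next enzyme (chromosome 9, 78297143 to 78330093), was at 49.4, 52.1 and 53.1 TPM against 43.2, 43.3 and 42.2 TPM, a change of -0.26 (SE 0.04, adjusted p = 1.12e-05). ALDH1L2, a mitochondrial folate enzyme, was at 15.4, 17.1 and 14.2 TPM against 12.3, 13.1 and 12.9 TPM, a change of -0.26 (SE 0.08, adjusted p = 0.0102). The shScramble libraries were the higher in all 3 genes, by a wide margin in PHGDH alone. SHMT2, MTHFD2 and PSPH did not pass, at 0.01, -0.11 and 0.17. PSPH shares sequence with its pseudogene PSPHP1, listed at a mean of 23.4 TPM, so its level is uncertain.

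Of the 6 other amino acid enzymes 4 fell and 0 rose, with a median of -0.38. ASNS, which makes asparagine and is a classical ATF4 target (chromosome 7, 97852118 to 97872542), was at 49.0, 50.8 and 48.0 TPM in shScramble and at 33.9, 36.0 and 35.6 TPM in shRPL3, a change of -0.47 (SE 0.05, adjusted p = 5.04e-08). GPT2, the mitochondrial alanine aminotransferase, was at 28.1, 24.9 and 28.2 TPM against 18.1, 19.1 and 18.6 TPM, a change of -0.52 (SE 0.11, adjusted p = 2.44e-04). CTH, the last step of cysteine synthesis from homocysteine, was at 4.63, 4.71 and 4.31 TPM against 2.87, 3.37 and 2.70 TPM, a change of -0.48 (SE 0.13, adjusted p = 3.09e-03). PYCR1, of proline synthesis, was at 64.8, 54.8 and 60.8 TPM against 48.4, 46.5 and 51.2 TPM, a change of -0.30 (SE 0.07, adjusted p = 1.59e-03). All 4 enzymes were thus lower in every shRPL3 library than in any shScramble library. CBS, upstream of CTH, was at -0.23 and ALDH18A1 at 0.18, neither past the threshold.

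The transporters split, 2 up and 3 down of 7. SLC3A2, the heavy chain of the large neutral amino acid exchanger, was at 185, 188 and 181 TPM in shScramble and at 312, 328 and 310.5 TPM in shRPL3, a change of 0.78 (SE 0.04, adjusted p = 4.11e-13). Its light chain SLC7A5 was at 129, 115 and 118 TPM against 151, 143 and 167 TPM, a smaller change of 0.35 (SE 0.06, adjusted p = 2.69e-05). Neither chain had overlapping groups. SLC1A4, which carries alanine, serine and cysteine, was at 13.8, 12.7 and 12.7 TPM against 8.54, 8.55 and 9.73 TPM, a change of -0.50 (SE 0.07, adjusted p = 9.06e-07). SLC38A2, a sodium-coupled glutamine and alanine carrier, was at 297, 292 and 287 TPM against 212, 213 and 217 TPM, a change of -0.45 (SE 0.07, adjusted p = 2.19e-05). Both were lower in every shRPL3 library. SLC1A5, the glutamine exchanger, fell by 0.18, and SLC7A1 and SLC6A9 did not pass.

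The 9 genes with the promoter core did not move together. ATF3, SLC3A2 and CEBPG rose, ASNS, SLC1A4, JDP2 and SLC1A5 fell, and CHAC1 and SLC7A1 did not pass, at 0.08 and 0.06. Leaving out the kind term, 7 members were higher and 10 lower, against 17.2% and 18.0%. The 7 calls lost were those of SESN2 (adjusted p = 0.16), PSAT1 (0.182), SLC38A2 (0.0519), SLC7A5 (0.124), CEBPB (0.136), SLC1A5 (0.262) and TRIB3 (0.443), although none of these libraries was of the second kind. The fit on the 2 groups alone lost SESN2, and leaving out shScramble replicate 2 lost ALDH1L2 (-0.20, adjusted p = 0.0738).

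**Figure D2:**
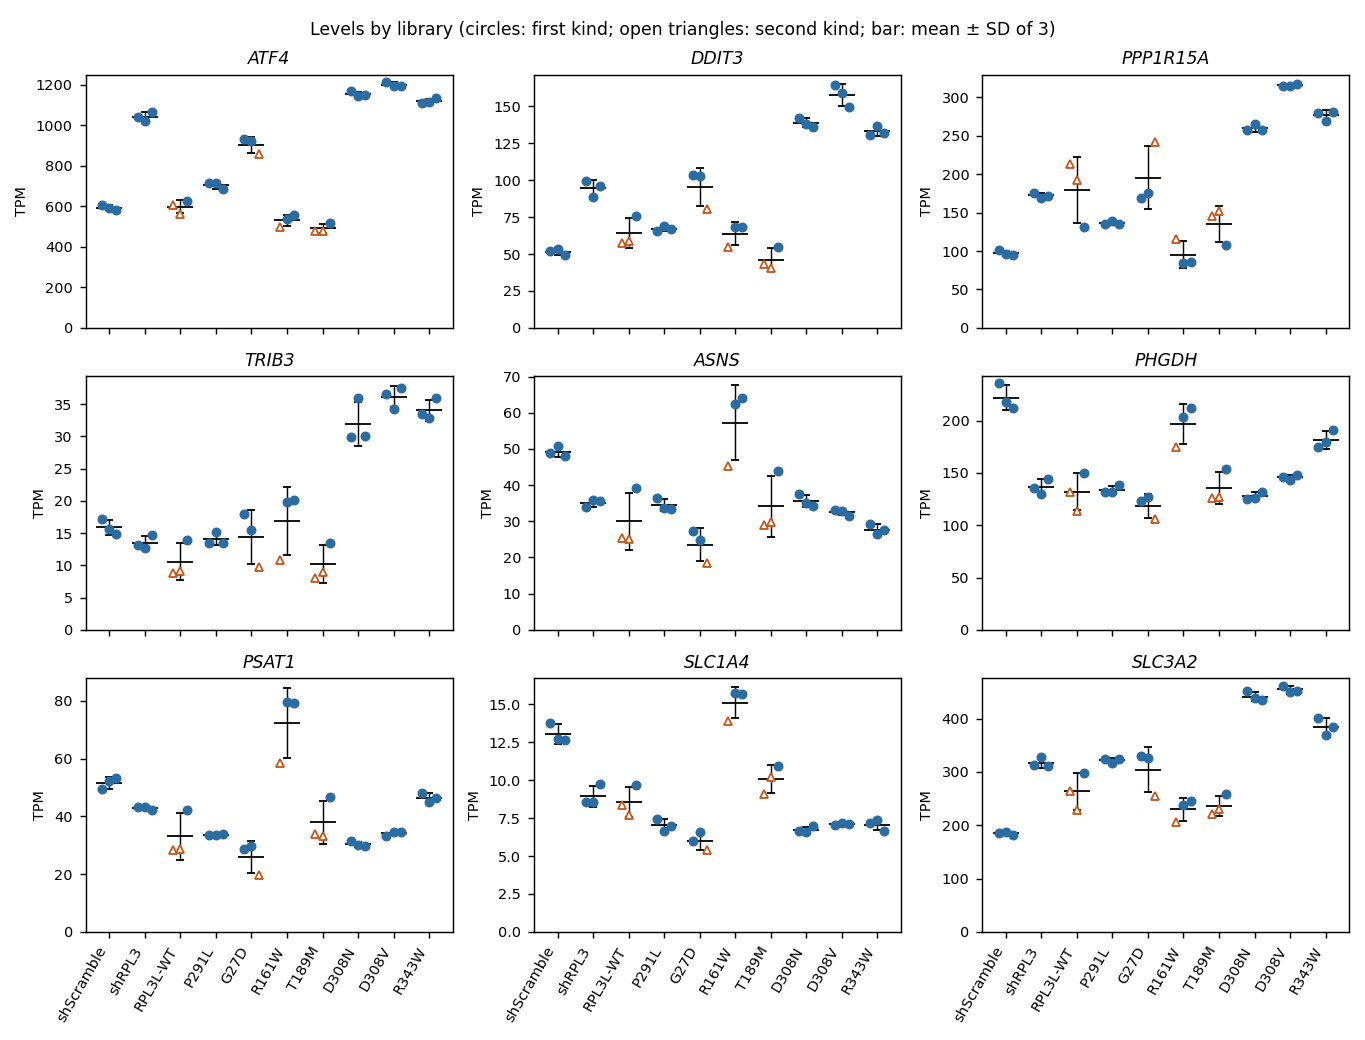
TPM of 9 of the genes in each library by group (circles, first kind; open triangles, second kind; bar and whiskers, mean ± SD of 3). ATF4, DDIT3, PPP1R15A and SLC3A2 are higher in shRPL3 than in shScramble, TRIB3 is high in D308N, D308V and R343W, and ASNS, PSAT1 and SLC1A4 are highest in R161W.

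The next question was how the list differed between RPL3L-WT and shRPL3. Against shRPL3, ATF4 and 4 other regulators were lower in RPL3L-WT (PPP1R15A among them only with the kind term). The 12 enzymes had adjusted p of 0.128 or more by limma with the kind term. In all 2 of 37 genes were higher and 7 lower, near the 6.27% and 20.1% of all genes. The list's median was -0.03 against -0.10 over all genes. Scaling each library by median ratio moved the median of all genes by over 0.1, from -0.10 to 0.01, and gave 7 higher and 5 lower, against 11.1% and 8.53%. A fit without the kind term gave 0 higher and 10 lower, against 5.77% and 30.2%. The enzymes depended on the fit too. With median-ratio scaling 2 of the 6 serine and one-carbon enzymes and 1 of the 6 others were higher. Without the kind term 1 serine and one-carbon enzyme was lower.

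Of the regulators 5 of 10 fell and 0 rose. ATF4 was at 605, 563 and 628 TPM in RPL3L-WT, well below every shRPL3 library, a kind-adjusted change of -0.72 (SE 0.03, adjusted p = 5.65e-14). DDIT3, at 57.7, 58.6 and 75.8 TPM, was likewise below shRPL3, with a change of -0.33 (SE 0.05, adjusted p = 3.67e-05). CEBPB, a C/EBP factor that pairs with ATF4, was at 40.7, 39.6 and 51.5 TPM against 73.8, 71.4 and 75.1 TPM, a change of -0.41 (SE 0.10, adjusted p = 3.49e-03). PPP1R15A had a kind-adjusted change of -0.31, with libraries at 214, 192 and 131 TPM, of which the first 2 are of the second kind and lay above shRPL3. CEBPG fell by 0.25. SLC7A1, the arginine transporter, was at 32.1, 33.1 and 40.6 TPM against 48.7, 50.5 and 49.8 TPM, a change of -0.35 (SE 0.07, adjusted p = 4.02e-04). XPOT, a tRNA exporter, fell by 0.26. The genes that rose were SLC7A5 (0.34) and STC2 (0.14). Without the kind term the calls of PPP1R15A (0.03, adjusted p = 0.907), SLC7A5 (-0.04, 0.863) and STC2 (0.03, 0.8) were lost, with the sign turned in the first 2. The fit on these 2 groups alone lost DDIT3 (adjusted p = 0.108) and SLC7A1 (0.112), and leaving out RPL3L-WT replicate 3, its only library of the first kind, lost CEBPB (0.0676).

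Set against shScramble, RPL3L-WT had 6 of the 10 regulators higher and 1 lower with the kind term, but 4 higher and 3 lower without it. Of the 12 enzymes 7 were lower. In all 10 genes were higher and 16 lower, against 15.6% and 29.1% of all genes. With median-ratio scaling this was 13 and 12, against 22.7% and 20.9%, and without the kind term 5 and 18, against 12.1% and 34.6%. The 2 comparisons with RPL3L-WT share its libraries, and their values are given side by side only. ATF4, at 599 ± 32.6 TPM (SD, n = 3), overlapped shScramble, and its change of 0.09 (SE 0.03, adjusted p = 0.0169) was lost without the kind term (0.01, adjusted p = 0.845), within the first kind (0.0849), on the 2 groups alone (0.389) and when RPL3L-WT replicate 1 or 3 or shScramble replicate 3 was left out (0.0511 to 0.0651). DDIT3 stayed 0.53 higher (SE 0.05, adjusted p = 6.57e-09). ATF3, at 21.0, 22.3 and 21.1 TPM, was still well above its shScramble level (1.32, SE 0.12, adjusted p = 4.83e-09). ATF5, at 51.4, 48.2 and 43.5 TPM, was too (0.86, SE 0.07, adjusted p = 5.09e-10). SLC3A2, at 264, 228 and 298 TPM, was 0.68 higher (SE 0.05, adjusted p = 6.11e-11).

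On the lower side, DDIT4 was at 24.7, 23.3 and 38.6 TPM in RPL3L-WT, below every shScramble library (-0.81, SE 0.08, adjusted p = 8.34e-09). VLDLR, a lipoprotein receptor, was at 3.40, 3.12 and 4.10 TPM against 5.18, 7.32 and 7.75 TPM (-0.65, SE 0.17, adjusted p = 3.44e-03), a call lost on the 2 groups alone (0.122). GDF15 was at 2.08, 2.42 and 3.12 TPM (-0.58, SE 0.20, adjusted p = 0.0228). Its call was lost under median-ratio scaling (0.0584), with no filter (0.0656), on the 2 groups alone (0.113) and without RPL3L-WT replicate 3 or shScramble replicate 1 or 2 (0.0699 to 0.107). PHGDH stayed 0.58 lower, ALDH1L2 and GPT2 0.45 lower, SLC1A4 0.43 lower and ASNS 0.38 lower.

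The lines with D308N, D308V and R343W had the highest ATF4 levels of the series. Compared with RPL3L-WT, ATF4, DDIT3, TRIB3 and PPP1R15A all rose by 0.82 to 1.25 in each of the 3 lines, while SLC1A4 fell in each. In D308N 15 of the 37 genes were higher and 8 lower, against 17.5% and 12.8% of all genes. D308V had 18 higher and 7 lower, against 16.2% and 12.7%, and R343W had 21 higher and 5 lower, against 18.8% and 12.6%. The list's medians were 0.13, 0.17 and 0.29, against 0.04, 0.02 and 0.04 over all genes. In a fit without the kind term D308N had 17 higher and 3 lower, against 23.7% and 9.48%, and D308V 19 and 3, against 21.6% and 9.03%, while R343W had the same counts, against 24.5% and 9.19%. These comparisons share the RPL3L-WT libraries, so likeness among them is not independent.

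Nearly all regulators rose: 9 of 10 in D308N and D308V and 8 of 10 in R343W. ATF4 was 0.87 higher than in RPL3L-WT in D308N (SE 0.03, adjusted p = 2.92e-16), 0.93 in D308V (adjusted p = 1.03e-16) and 0.83 in R343W (adjusted p = 9.46e-16). TRIB3, on chromosome 20 at 362835 to 397559, was at 8.77, 9.08 and 13.9 TPM in RPL3L-WT, at 29.9, 35.9 and 30.0 TPM in D308N, at 36.6, 34.3 and 37.5 TPM in D308V and at 33.5, 32.9 and 35.9 TPM in R343W. No library of the 3 variant lines came near those of RPL3L-WT, and the kind-adjusted changes were 1.07, 1.25 and 1.17 (SE 0.09 each, adjusted p at most 2.23e-09). DDIT3 was at 142, 138 and 136 TPM in D308N, at 165, 159 and 149.6 TPM in D308V and at 131, 136 and 132 TPM in R343W, with changes of 0.88, 1.06 and 0.82 (SE 0.05 each, adjusted p at most 9.61e-12). PPP1R15A was at 257, 265 and 257 TPM, at 315, 314 and 318 TPM, and at 280.0, 268 and 280.4 TPM in the same lines, above even the RPL3L-WT libraries of the second kind. Its change was 0.90 in D308N (adjusted p = 2.26e-13) and 1.18 in D308V (adjusted p = 3.01e-15). CEBPB reached 110.4, 117 and 127 TPM in R343W, 1.09 above RPL3L-WT (SE 0.10, adjusted p = 1.02e-08).

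Of the stress effectors, 4 of 8 rose in D308N and 6 in each of D308V and R343W, and 0 fell. SESN2 was at 20.6, 20.6 and 21.4 TPM in D308V against 6.63, 6.27 and 9.49 TPM in RPL3L-WT, a change of 1.09 (SE 0.07, adjusted p = 6.13e-11). GDF15 was at 9.19, 9.05 and 10.53 TPM in R343W, the highest group of the series, a change of 1.32 (SE 0.20, adjusted p = 2.32e-05). The same gene changed by 0.84 in D308N and 1.05 in D308V. CHAC1, which degrades glutathione, rose by 0.38 in D308N and 0.84 in D308V and was at 0.05 in R343W, not past the threshold.

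Enzymes and transporters were mixed: D308N had 1 enzyme higher and 4 lower, D308V 1 and 3, and R343W 3 and 3. SLC1A4 was at 6.66, 6.57 and 6.96 TPM in D308N, at 7.06, 7.18 and 7.13 TPM in D308V and at 7.15, 7.41 and 6.66 TPM in R343W, below the RPL3L-WT libraries of 8.34, 7.69 and 9.68 TPM. Its changes were -0.43, -0.36 and -0.37 (SE 0.07 each, adjusted p at most 6.54e-04). PYCR1 changed by -0.21, -0.26 and -0.38, the last with an adjusted p of 8.38e-04. ALDH1L2 was at 9.02, 8.42 and 7.76 TPM in D308N against 11.3, 11.4 and 12.5 TPM in RPL3L-WT (-0.37, SE 0.09, adjusted p = 3.60e-03). JDP2 was at 16.1, 16.3 and 15.8 TPM in D308N and at 13.2, 13.0 and 16.1 TPM in D308V, against 19.8, 20.2 and 19.8 TPM (-0.30, adjusted p = 0.0240, and -0.48, adjusted p = 6.43e-04). GPT2 was at 14.9, 15.8 and 14.4 TPM in R343W against 19.4, 19.9 and 18.7 TPM (-0.35, SE 0.12, adjusted p = 0.0238). In each of these genes the named variant's libraries were always below those of RPL3L-WT. SLC3A2 rose by 0.57, 0.62 and 0.38 in the 3 lines, and SLC7A1 by 0.53 in R343W.

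Some of the smaller calls were unstable. On the 2 groups alone, as within the first kind, these fold changes rested on RPL3L-WT replicate 3 alone in that group. JDP2 in D308N, PYCR1 in D308V (-0.20 within the first kind) and GPT2 in R343W were each lost within the first kind (adjusted p 0.132, 0.173 and 0.173), with no filter (0.0646, 0.0551 and 0.0683), on the 2 groups alone and when single libraries were left out (D308N 3 or RPL3L-WT 3, D308V 2 or RPL3L-WT 1, and R343W 1 or 3). Without the kind term PYCR1 was lost in D308N (-0.13, adjusted p = 0.245) and D308V (0.122). PSAT1, SHMT2 and SLC1A5 were lost there in both lines, PHGDH in D308N, ASNS in D308V and R343W, and SLC7A5 in all 3, with its sign turned. In D308V that fit also turned the sign of ASNS, PSAT1 and SLC1A5. ALDH1L2 in D308N was lost without RPL3L-WT replicate 3 (-0.21, adjusted p = 0.16) and on the 2 groups alone (0.0525), and SLC1A4 in all 3 lines, JDP2 in D308V and PYCR1 in R343W on the 2 groups alone (0.0731 to 0.129).

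The same 3 lines were also compared with shRPL3, labelled with the hairpin alone, although its replicate 3 held RPL3L message. They had 8 or 9 of the 10 regulators and 6 of the 8 effectors higher. In D308N 15 genes were higher and 7 lower, against 11.2% and 22.2% of all genes (11 and 5 without the kind term, against 5.73% and 12.4%). D308V had 16 higher and 8 lower, against 9.67% and 22.4% (21 and 6 with median-ratio scaling, against 14.7% and 13.3%, and 13 and 5 without the kind term, against 5.19% and 11.1%). R343W had 21 higher and 5 lower, against 12.7% and 22.8% (13 and 3 without the kind term, against 7.22% and 12.4%). The medians of the list were 0.12, 0.15 and 0.18, where those of all genes were -0.05, -0.07 and -0.06. All libraries of these 4 groups are of the first kind, and the 3 comparisons share the shRPL3 libraries.

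TRIB3 was at 13.2, 12.7 and 14.7 TPM in shRPL3, where its fall against shScramble was lost without the kind term. It was 1.18 higher in D308N (SE 0.08, adjusted p = 6.17e-11), 1.35 in D308V (adjusted p = 4.44e-12) and 1.27 in R343W (adjusted p = 1.07e-11). GDF15 was at 5.598, 7.30 and 6.89 TPM in D308N and at 8.01, 6.72 and 8.65 TPM in D308V, above the 2.97, 2.31 and 4.04 TPM of shRPL3, with changes of 0.90 (SE 0.18, adjusted p = 4.23e-04) and 1.11 (adjusted p = 4.76e-05). In R343W its change was 1.39 (adjusted p = 2.06e-06). CHAC1 was at 18.5, 15.9 and 16.5 TPM in D308V against 7.12, 6.11 and 8.18 TPM, a change of 1.15 (SE 0.11, adjusted p = 1.63e-08). ATF5 was at 74.2, 77.8 and 76.7 TPM in D308N against 41.8, 41.1 and 42.4 TPM, a change of 0.85 (SE 0.06, adjusted p = 1.31e-10). CEBPB in R343W was 0.68 higher (SE 0.09, adjusted p = 1.82e-06). NUPR1, a small stress-induced chromatin protein, had not passed in shRPL3 against shScramble, and was 0.74, 0.68 and 0.64 higher than shRPL3 in D308N, D308V and R343W.

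The message of ATF4 was closer to its shRPL3 level, though its libraries lay above shRPL3 in all 3 lines. It was 0.15 higher in D308N (SE 0.03, adjusted p = 1.42e-04), 0.20 in D308V (adjusted p = 2.71e-06) and 0.10 in R343W (adjusted p = 4.02e-03). The last call was lost without the kind term (0.177) and on the 2 groups alone (0.0547). DDIT3 was 0.55 higher in D308N (adjusted p = 9.47e-10), 0.73 in D308V (adjusted p = 6.07e-12) and 0.49 in R343W (adjusted p = 6.00e-09).

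Of the enzymes, 4 were lower in D308N, in D308V and in R343W, and R343W also had 3 higher. ALDH1L2 was at 12.3, 13.1 and 12.9 TPM in shRPL3, and was 0.55 lower in D308N (SE 0.08, adjusted p = 1.26e-05). D308V, at 9.90, 9.09 and 9.72 TPM, and R343W, at 10.4, 9.76 and 9.14 TPM, were 0.38 and 0.35 lower (adjusted p = 9.75e-04 and 1.58e-03). PSAT1 was at 31.3, 29.9 and 29.82 TPM in D308N, 0.49 below shRPL3 (SE 0.04, adjusted p = 2.19e-09), and at 48.1, 44.9 and 46.3 TPM in R343W, 0.11 above it, a call lost without the kind term (adjusted p 0.659). PHGDH in R343W, at 175, 179 and 191 TPM, was 0.41 above shRPL3, where D308N was at -0.10 and D308V at 0.09, neither past the threshold. The difference between R343W and the other lines was not tested. PYCR1 in R343W, at 31.1, 34.8 and 37.5 TPM, was 0.49 lower (SE 0.07, adjusted p = 1.14e-05), and ASNS, at 29.3, 26.4 and 27.5 TPM, 0.33 lower (SE 0.05, adjusted p = 1.87e-05, lost without the kind term at 0.149). SLC7A1 in D308N was at 37.8, 36.0 and 37.3 TPM, 0.41 lower (SE 0.06, adjusted p = 7.44e-06). In D308V, JDP2 was 0.41 lower (adjusted p = 9.70e-04) and VLDLR, at 3.30, 3.68 and 3.78 TPM, 0.54 lower (SE 0.15, adjusted p = 9.25e-03, lost without shRPL3 replicate 3 at 0.0527).

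The sum of the 11 fibroblast markers was lower in these lines. It was 5353 to 5611 TPM in D308N, 5549 to 5975 TPM in D308V and 5539 to 5785 TPM in R343W, against 6649 to 7031 TPM in shRPL3 and 6786 to 7198 TPM in RPL3L-WT. VIM, FN1 and COL1A1 had the highest medians of the markers, 2890, 1273 and 1144 TPM, and single markers were not compared between groups. The cardiomyocyte sum was at 3.21 to 3.81 TPM in D308N, which overlapped the 3.40 to 4.63 TPM of shRPL3. It was below shRPL3 in D308V, at 2.48 to 2.88 TPM, and above it in R343W, at 4.98 to 5.45 TPM. Their part in the results was not tested.

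**Figure D3:**
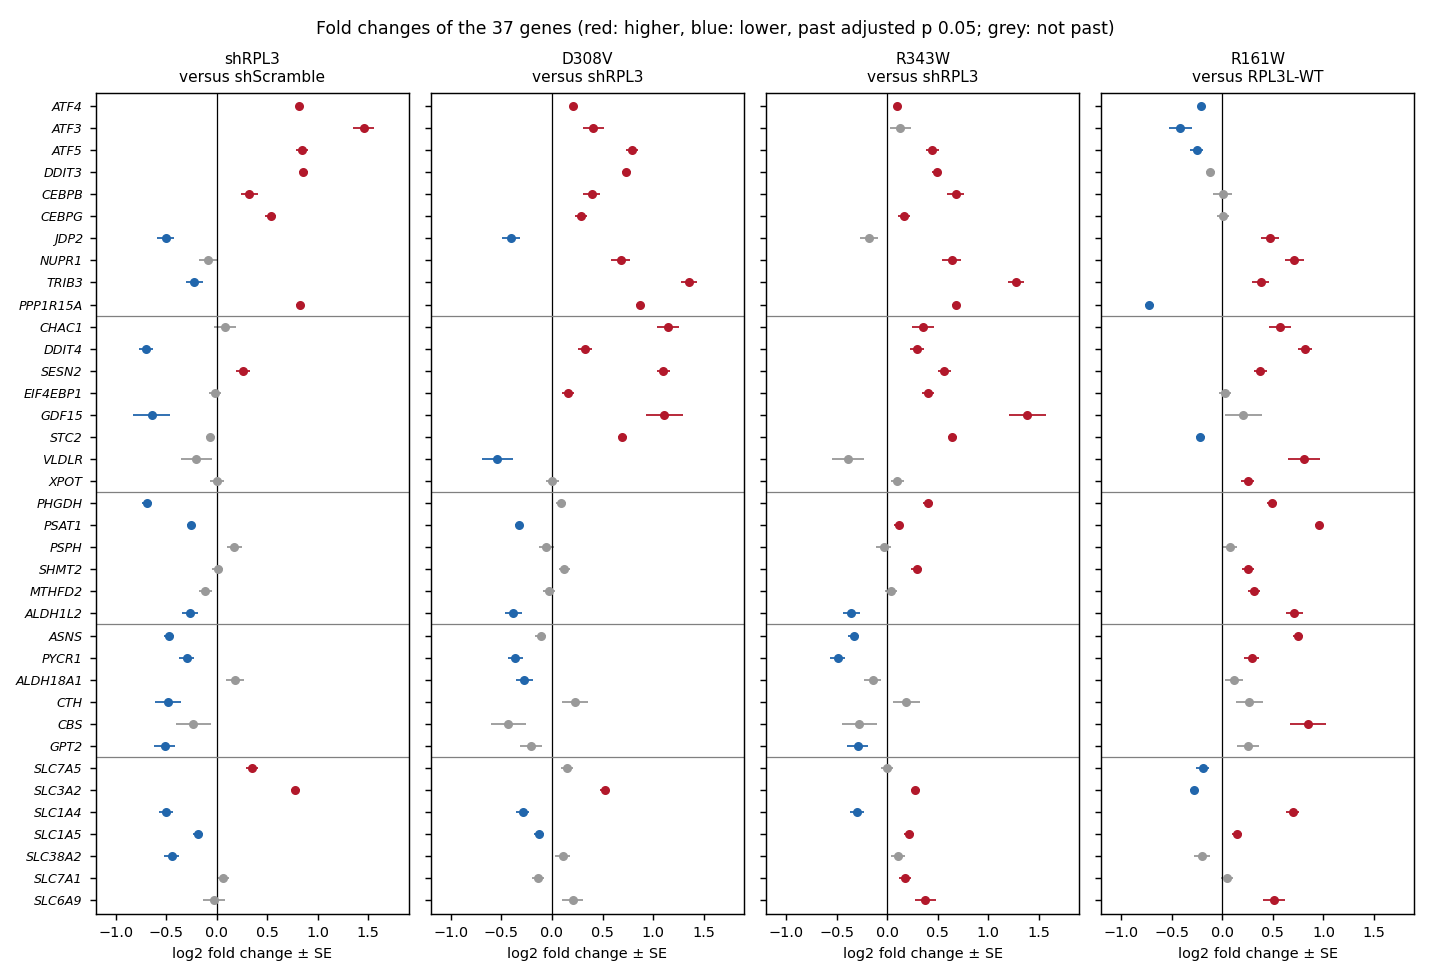
Kind-adjusted log2 fold change ± SE of each of the 37 genes in 4 comparisons (red, higher and blue, lower past an adjusted p of 0.05; grey, not past). ATF4, DDIT3 and PPP1R15A are right of 0 and ASNS and PYCR1 left of 0 or grey in the first 3 panels, and in R161W against RPL3L-WT the enzymes lie to the right and ATF4, ATF3 and PPP1R15A to the left.

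D308N and D308V replace the same aspartate by asparagine and by valine. Between them 0 of 37 genes were higher in D308N and 9 lower, against 4.07% and 4.19% of all genes (2 higher and 13 lower at an unadjusted p under 0.05). STC2, a secreted glycoprotein, was at 301, 312 and 313 TPM in D308N and at 430, 400 and 416 TPM in D308V (-0.43, SE 0.04, adjusted p = 6.57e-07). CHAC1 was at 10.8, 12.8 and 12.5 TPM against 18.5, 15.9 and 16.5 TPM (-0.46, SE 0.11, adjusted p = 8.54e-03), and SESN2 at 16.1, 17.4 and 17.2 TPM against 20.6, 20.6 and 21.4 TPM (-0.29, SE 0.06, adjusted p = 6.88e-03). All 3 were lower in every D308N library. DDIT3 was 0.18 lower (SE 0.04, adjusted p = 0.0111), and ATF4 was at -0.06 (SE 0.03, adjusted p = 0.208), which does not show that they were alike. In a fit without the kind term 0 were higher and 1 lower, against 0.776% and 0.866%, and CHAC1 (0.188), SESN2 (0.418) and DDIT3 (0.572) were lost. On the 2 groups alone SESN2 (0.0586) and DDIT3 (0.0824) were lost, and DDIT3 also without D308N replicate 3 (0.055) or D308V replicate 1 (0.0644).

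Compared with RPL3L-WT, R161W had 8 of the 12 amino acid enzymes higher and 0 lower, and ATF4, ATF3, ATF5 and PPP1R15A lower. Against RPL3L-WT 19 genes were higher and 7 lower, against 16.1% and 8.87% of all genes, with a median of 0.25 against 0.05. When the kind term was dropped 17 were higher and 4 lower, against 12.6% and 4.07%. Of the 6 serine and one-carbon enzymes 5 rose and 0 fell. PSAT1 was at 58.4, 79.4 and 79.4 TPM against 28.3, 28.5 and 42.2 TPM in RPL3L-WT, a kind-adjusted change of 0.95 (SE 0.04, adjusted p = 9.05e-14). CBS, the entry to cysteine synthesis, was at 7.76, 11.6 and 14.2 TPM against 4.55, 4.95 and 5.70 TPM (0.85, SE 0.18, adjusted p = 1.29e-03). DDIT4 was at 41.3, 69.9 and 69.8 TPM against 24.7, 23.3 and 38.6 TPM (0.82, SE 0.07, adjusted p = 7.07e-09). The R161W libraries were the higher throughout, and the lowest of them, replicate 1, is its library of the second kind. ASNS rose by 0.75, ALDH1L2 by 0.71, SLC1A4 by 0.69 and VLDLR by 0.81.

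The regulators split, 3 up and 4 down. PPP1R15A was at 116, 83.8 and 86.2 TPM in R161W against 214, 192 and 131 TPM, a change of -0.72 (SE 0.04, adjusted p = 6.74e-12). ATF3, at 18.4, 15.0 and 14.7 TPM, changed by -0.42 (SE 0.11, adjusted p = 7.69e-03) and ATF4 by -0.21 (SE 0.03, adjusted p = 4.25e-06), with no overlap with RPL3L-WT in either. DDIT3 was at -0.12 (SE 0.05, adjusted p = 0.0576), and passed with median-ratio scaling (-0.19, adjusted p = 5.95e-03). NUPR1 rose by 0.71, JDP2 by 0.47 and TRIB3 by 0.38. ATF3 was lost on the 2 groups alone (0.0654). A knockdown of RPL3 was not evident in replicates 2 and 3 of R161W, its first-kind libraries. Replicate 1 is of the second kind, for which shScramble has no library to compare with. RPL3 was at 1059, 1686 and 1570 TPM in R161W against 1534 to 1611 TPM in shScramble. It was higher than in the other lines with the hairpin, apart from an overlap with T189M across kinds. Within each kind R161W was above T189M. The part of RPL3 in the result was not tested. R161W was not tested against shScramble. Unadjusted means in R161W and shScramble were 95.4 and 97.1 TPM for PPP1R15A and 60.3 and 67.6 TPM for DDIT4. The R161W means mix kinds, while all shScramble libraries are of the first kind. In replicates 2 and 3 of R161W, of the first kind, PPP1R15A was below the 94.3 to 101 TPM of shScramble. DDIT4 in these replicates was within the 62.6 to 71.7 TPM of shScramble. The unadjusted means lay further apart for PSAT1, at 72.4 and 51.5 TPM, and for ATF3, at 16.0 and 8.13 TPM.

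In G27D ATF4 and 4 other regulators rose, while 2 of the 8 effectors fell and 0 rose. Against RPL3L-WT 5 genes were higher and 11 lower, against 4.31% and 6.02% of all genes. ATF4 rose by 0.56 (SE 0.03, adjusted p = 3.22e-12) and DDIT3, at 103, 103 and 80.2 TPM, by 0.45 (SE 0.05, adjusted p = 2.44e-07). ATF5 was at 53.1, 56.3 and 63.8 TPM against 51.4, 48.2 and 43.5 TPM (0.35, SE 0.06, adjusted p = 5.06e-04). Every G27D library was above every RPL3L-WT library in these 3 genes. STC2 was at 192, 185 and 173 TPM against 254, 244 and 285 TPM (-0.56, SE 0.05, adjusted p = 1.02e-08). SLC1A4 was at 6.01, 6.56 and 5.40 TPM, its lowest group (-0.51, SE 0.07, adjusted p = 1.37e-05), and GPT2 at 13.8, 14.8 and 16.1 TPM (-0.36, SE 0.11, adjusted p = 0.0318). CHAC1 fell by 0.53 and ASNS and PSAT1 by 0.50 each, and the lower genes included enzymes, carriers and effectors.

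Leaving out the kind term, G27D had 2 genes higher and 3 lower, against 1.55% and 1.77%, and 11 of the 16 calls were lost, CHAC1 (0.231), ASNS (0.284), PSAT1 (0.229), CEBPB (0.143) and PPP1R15A (0.655) among them. ATF5 was lost without that term (0.124) and within the first kind (0.0607), SLC1A4 on the 2 groups alone (0.0529), and GPT2 in all of these (0.0671 to 0.225), with no filter (0.0872) and without any of 5 of the 6 libraries (0.0632 to 0.11). G27D had a fibroblast marker sum of 5455 to 5832 TPM, and its part was not tested.

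P291L differed from RPL3L-WT in 6 of the 37 genes of the list, a larger share than among all genes. ATF4 was the 1 gene higher and 5 genes were lower, against 0.825% and 1.16% of all genes. ATF4 was 0.16 higher (SE 0.03, adjusted p = 3.47e-03), and DDIT3 was at -0.16 (SE 0.05, adjusted p = 0.0982) with libraries at 65.7, 68.8 and 67.0 TPM, a value that turned to 0.08 without the kind term. NUPR1 was at 23.9, 30.2 and 28.4 TPM against 41.9, 39.5 and 36.1 TPM (-0.53, SE 0.10, adjusted p = 4.67e-03). SLC1A4 was at 7.43, 6.66 and 6.99 TPM (-0.38, SE 0.07, adjusted p = 5.35e-03), and STC2 at 235, 235 and 239 TPM (-0.26, SE 0.05, adjusted p = 4.64e-03). P291L libraries were the lower in all 3. When the kind term was left out 1 gene was higher and 2 lower, against 1.66% and 1.09%, and DDIT4 (0.757) and PSAT1 (0.83, its sign turned) were among the calls lost. The calls of SLC1A4 (0.09) and STC2 (0.196) were lost without that term and without RPL3L-WT replicate 3 (0.0675 and 0.0545), that of NUPR1 within the first kind (0.187), and all 4 calls named here on the 2 groups alone (0.126 to 0.352).

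Against shRPL3, P291L had 4 genes higher and 15 lower, against 8.52% and 27.3% of all genes. With median-ratio scaling, which moved the median of all genes from -0.10 to 0.01, this was 8 and 11, against 15.2% and 14.1%, and without the kind term 0 and 10, against 4.67% and 15.0%. ATF4 was 0.56 lower than in shRPL3 (SE 0.03, adjusted p = 1.46e-13) and DDIT3 0.48 lower (SE 0.04, adjusted p = 1.31e-08). DDIT4, at 24.7, 26.8 and 27.5 TPM, was 0.62 lower (SE 0.07, adjusted p = 1.80e-07) and NUPR1 0.58 lower (SE 0.09, adjusted p = 2.53e-05). SLC7A5, at 198, 212 and 204 TPM, was 0.41 above shRPL3 (SE 0.06, adjusted p = 8.18e-06 by limma). Its mean was the highest of the series without adjustment for kind, but second-kind libraries were 0.58 lower in this gene (log2). The first-kind libraries of RPL3L-WT and T189M held 199 and 196 TPM, and 0 of the 7 transporters were higher in P291L than in RPL3L-WT. CTH, at 4.68, 4.19 and 3.41 TPM, was 0.35 higher (SE 0.13, adjusted p = 0.0358) and ATF5, at 45.9, 51.1 and 49.9 TPM, 0.22 higher (SE 0.06, adjusted p = 5.75e-03). The 3 rises were lost without the kind term (0.0997, 0.0699 and 0.102), and that of CTH also with no filter (0.0887), on the 2 groups alone (0.0765) and without P291L replicate 1 or 2 or shRPL3 replicate 1 or 3 (0.0889 to 0.163).

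T189M had the lowest mean ATF4 and DDIT3 of the series without adjustment for kind, its ATF4 libraries overlapping R161W only across kinds. Its replicates 1 and 2 are of the second kind, in which DDIT3 was 0.36 lower (log2). Its first-kind library, replicate 3, held 54.9 TPM of DDIT3, above the 49.1 to 53.5 TPM of shScramble. Against RPL3L-WT 6 genes were higher and 7 lower, against 7.51% and 3.08% of all genes. Of the regulators 6 fell and 0 rose. ATF4 fell by 0.28 (SE 0.03, adjusted p = 2.26e-07) and DDIT3, at 43.4, 40.5 and 54.9 TPM against 57.7, 58.6 and 75.8 TPM, by 0.46 (SE 0.04, adjusted p = 2.79e-07). Their T189M libraries were below every RPL3L-WT library. NUPR1 was at 28.1, 26.6 and 32.6 TPM (-0.42, SE 0.09, adjusted p = 4.23e-03) and ATF3 at 13.8, 15.8 and 18.5 TPM (-0.41, SE 0.11, adjusted p = 0.0160). On the higher side ALDH1L2 was at 20.3, 20.1 and 16.0 TPM against 11.3, 11.4 and 12.5 TPM (0.63, SE 0.08, adjusted p = 2.85e-05) and PYCR1 at 51.1, 60.5 and 58.9 TPM against 43.3, 40.8 and 43.4 TPM (0.41, SE 0.07, adjusted p = 7.95e-04). ASNS and PSAT1 rose by 0.19 and 0.20.

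T189M counts depended on the fit. With median-ratio scaling 3 were higher and 8 lower, against 4.62% and 5.93%, and without the kind term 2 and 3, against 1.39% and 0.409%. Within the first kind, where each group has 1 library, ALDH1L2 (0.33, adjusted p = 0.28), PYCR1 (0.43, 0.153), NUPR1 (-0.14, 0.775) and ATF3 (-0.18, 0.726) were lost, as they were on the 2 groups alone (0.0617 to 0.128). Without the kind term 8 of the 13 calls were lost, ATF3 (0.0563), ASNS (0.677) and PSAT1 (0.609) among them, and ATF3 was also lost without T189M replicate 1 or RPL3L-WT replicate 2 (0.107 and 0.0708). RPL3 in T189M was at 780, 802 and 1246 TPM, the first 2 of these in second-kind libraries. These levels were above those of the other RPL3L lines but R161W. The fibroblast marker sum was 7369 to 7723 TPM, above the 6786 to 7198 TPM of RPL3L-WT. Their part in the result was not tested.

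**Figure D4:**
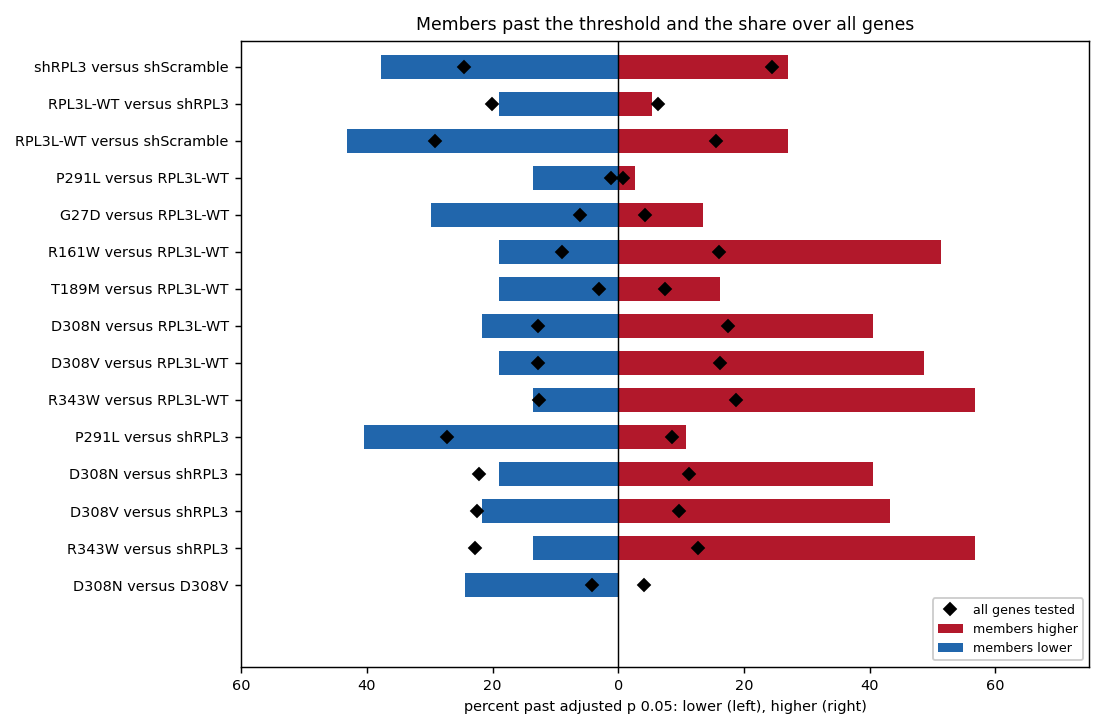
Percent of the 37 genes (bars) and of all 14426 genes tested (diamonds) that were higher (right) or lower (left) at an adjusted p under 0.05, for the 15 comparisons. The bars to the right reach furthest in R343W, with 21 of 37 genes against either control, and in R161W with 19.

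Genes of the pathway outside the list gave the following counts. Of 17 genes upstream of ATF4, the eIF2 kinases, eIF2 and eIF2B subunits and their regulators, 9 rose and 4 fell with the RPL3 hairpin, against 24.4% and 24.5% of all genes. In the fit without the kind term 4 rose and 3 fell, against 17.2% and 18.0%. EIF2B4, a regulatory subunit of the eIF2B exchange factor, was at 30.5, 28.2 and 31.0 TPM in shScramble and at 57.1, 55.4 and 56.9 TPM in shRPL3 (0.90, SE 0.05, adjusted p = 5.03e-13). EIF2AK1, the haem-regulated eIF2 kinase, went from 82.0, 84.4 and 81.6 TPM to 50.9, 58.8 and 56.7 TPM (-0.57, SE 0.07, adjusted p = 3.36e-07). The groups did not overlap in either gene. In D308N, D308V and R343W against shRPL3, 2, 1 and 1 of the 17 rose, against 11.2%, 9.67% and 12.7% of all genes, and 3, 3 and 5 fell, against 22.2%, 22.4% and 22.8%. With that term left out 1, 1 and 0 rose and 1, 1 and 2 fell. OMA1, the mitochondrial protease that starts the DELE1 relay, was at -0.45, -0.47 and -0.43, calls that were lost without that term (adjusted p 0.218, 0.209 and 0.232).

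Of 14 further ATF4 targets, 12 were tested, since FGF21 and SLC43A1 were below the filter. With the hairpin 3 rose and 5 fell, against 24.4% and 24.5% of all genes. SLC7A11, the cystine carrier, was at 5.22, 4.28 and 4.46 TPM in shScramble and at 1.93, 2.25 and 2.00 TPM in shRPL3 (-0.88, SE 0.10, adjusted p = 1.04e-07), and PCK2 and NIBAN1 fell by 0.49 and 0.54. VEGFA and SQSTM1, an autophagy receptor, rose by 0.61 and 0.27. Against shRPL3, 5 rose and 3 fell in D308N (3 and 1 without the kind term), 4 and 0 in D308V, and 6 and 2 in R343W, against the shares of all genes given above for these lines. SQSTM1 in D308V, at 410, 387 and 395 TPM, was 0.68 above the 248, 237 and 259 TPM of shRPL3 (SE 0.04, adjusted p = 6.19e-12). In R161W against RPL3L-WT 7 rose and 0 fell, against 16.1% and 8.87% of all genes, with INHBE, an activin subunit, at 6.32, 8.65 and 7.96 TPM against 0.705, 1.38 and 1.52 TPM (1.88, SE 0.17, adjusted p = 2.14e-08). The R161W and RPL3L-WT libraries of INHBE did not overlap.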

How the data were processed

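The members and the further gene lists were chosen with earlier results of these data known. Per the labels, RNA was polyA-selected and made into TruSeq libraries. Tools in the submitters' processing notes are kallisto, Bowtie, bedtools and bcl2fastq 2.19, with no role stated. Index and genome build: not given in the sources used here. Gene-level TPM were deposited by the authors in a single table, which sums to 1000000 in each library, so sequencing depth is unknown and no counting interval is given. Every column had its labelled library (0 had none), and 6 construct sequences among 60612 entries were left out. The 12 nuclear libraries were not used here.

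A pseudocount of 1 was added before log2 of TPM. Genes with a mean of at least 1 TPM over 30 libraries were tested, 14426 in all, with limma 3.58.1 in R 4.3.3 (two-sided moderated test, robust and with a mean trend) over 10 groups and the library kind. The kind is the widest gap, 14.0 against 2.00 for the next, along the first principal component of 330 pseudogenes. The ratio of the construct sequences EBFP2 and rtTA3 was 0.971 to 1.05 in first-kind and 1.43 to 1.57 in second-kind libraries. P-values were adjusted by Benjamini-Hochberg over all genes within each of 15 comparisons, with a threshold of 0.05. Values are given, within each role, for the 4 largest changes past the threshold in shRPL3 against shScramble, and elsewhere for up to 3 each way whose groups did not overlap. ATF4 and DDIT3 were added in every comparison, and other members are given by fold change alone. Alternatives were no kind term, a pseudocount of 0.1, no filter, median-ratio scaling, the 2 groups alone, a replicate block, leaving out each library and, chosen after seeing the data, first-kind libraries only. Gene positions are GENCODE 29. Tables and plots used pandas 2.3.3, numpy 2.4.6 and matplotlib 3.10.9 under Python 3.11.15.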

Additional observations from a re-analysis of the deposited data

How the results depend on the processing

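Of 114 named fold changes under 1482 other settings, 1381 kept their direction and side of the threshold, 98 were no longer past it, 2 newly passed and 1 changed sign (DDIT3, P291L against RPL3L-WT, 0.078 without the kind term). A pseudocount of 0.1, no filter and median-ratio scaling kept the total of members past the threshold, both directions together, within 1.5 times in each comparison, while median-ratio scaling moved the higher count from 2 to 7 in RPL3L-WT and 4 to 8 in P291L against shRPL3, and from 6 to 3 in T189M against RPL3L-WT. The fits on the 2 groups alone kept the kind term where both kinds were present. RPL3L-WT against a group without second-kind libraries then rested on its replicate 3 alone. These fold changes were the same as within the first kind. On the 2 groups alone, also with fewer samples to estimate the spread, members past the threshold were 2 of the former 9 in RPL3L-WT against shRPL3 and 12 of 26 against shScramble. Against RPL3L-WT they were 0 in P291L (2 higher and 10 lower at an unadjusted p under 0.05 by limma), 2 in T189M, 8 in G27D, 15 in both D308N and D308V, 16 in R343W and 17 in R161W, and 3 in D308N against D308V. Without the kind term they were 3 in P291L, 5 in G27D and 5 in T189M against RPL3L-WT, 10 in P291L and 16 in R343W against shRPL3, and 1 in D308N against D308V. With first-kind libraries only, T189M against RPL3L-WT had 3 of 13, with 1 library in each group assumed to vary like the others.

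Leaving out 1 library at a time gave 23 to 24 members in shRPL3 against shScramble, 8 to 10 in RPL3L-WT against shRPL3 and 21 to 27 against shScramble. Against RPL3L-WT it gave 4 to 6 in P291L, 9 to 13 in T189M, 13 to 14 in G27D, 19 to 22 in D308N, 21 to 25 in D308V, 24 to 26 in R343W and 23 to 27 in R161W. Against shRPL3 it gave 14 to 16 in P291L, 20 to 22 in D308N, 22 to 24 in D308V and 22 to 25 in R343W, and 6 to 9 in D308N against D308V. Replicate numbers did not pair the samples: 0 of 3 same-numbered pairs had a residual correlation over 0.1, except 1 of 3 in G27D against RPL3L-WT. With the replicate block the counts stayed close (28 in R161W against RPL3L-WT, 22 in D308V against shRPL3), 113 of 114 named fold changes kept their call, and DDIT3 in R161W passed (-0.124, adjusted p = 0.0486).

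TPM keep no depth, so differences in low genes such as GDF15, CTH, CBS and VLDLR, at a mean of 3.75 to 6.41 TPM, have unknown counting error. Single outlying libraries were not tested, and the second library kind is known from the values alone.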
